A study of Mus musculus with 185 samples.

Results

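The BCL2 family was followed through 10 of its genes in epidermal Langerhans cells (LCs), the antigen-presenting cells of the outer skin layer. The genes were taken by name from the 45661 genes of the count table: the survival genes Mcl1, Bcl2a1a, Bcl2a1b, Bcl2a1d, Bcl2l1 and Bcl2, the BH3-only genes Bcl2l11 and Bid, and the effectors Bax and Bak1. Levels, shares of cells with a read and correlations between genes were compared by cell origin and by sort plate.

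The cells came from bone marrow chimeras (BMC). CD45.1 Cd207DTR mice on the B6 background, which express the diphtheria toxin (DT) receptor from the Cd207 gene, were lethally irradiated and given wild-type CD45.2 marrow. They received a low dose of DT, 5 ng per g of body weight, 2 months later, and cells were sorted 2 months after DT. LCs of host origin that outlasted irradiation and DT (eLCs, CD45.1, carrying Cd207DTR) and donor LCs derived from the marrow (moLCs, CD45.2, wild type at Cd207) therefore came from the epidermis of chimeric animals that had all received DT. Origin was read from the congenic marker at the sort, which took lineage-negative CD11c+ CD11b+ CD24+ MHCII+ CD326+ cells singly into 2 plates. The labels name no animal, so each origin counted as 1 sample, no test between origins was possible, and every interval given here covers counting error only. Age and sex of the animals were not used here.

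Of 185 cells, 182 had at most 5% of their reads on mitochondrial (mt-) genes and were kept. The moLCs numbered 67 on plate 1 and 36 on plate 2, and the 79 eLCs were split into 29 on plate 1 and 50 on plate 2. Total reads per cell ran from 432614 to 4525429, and the median number of genes read was 4026 among moLCs and 4488 among eLCs. Reads of 9 LC markers, Cd207, Epcam and Csf1r among them, were found in each origin. The summed level of 8 keratinocyte markers, of 7 T cell markers, of 8 monocyte markers, of 6 melanocyte markers and of 6 mast cell markers had a median of 0 in each origin, while 6 markers of dermal DC1s had a median of 83.7 CPM in moLCs and 64.7 CPM in eLCs. CPM are reads of the gene per 1000000 reads of the cell, or of the summed cells.

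BCL2 family proteins decide whether a cell opens the outer membrane of its mitochondria and dies by apoptosis. Antiapoptotic members such as BCL2, BCL-XL (from Bcl2l1), MCL1 and A1 (from the Bcl2a1 genes) hold the effectors BAX and BAK in check. BH3-only proteins such as BIM (from Bcl2l11) and BID relay stress signals, either by occupying the antiapoptotic members or by switching on the effectors. MCL1 and A1 are short-lived proteins, A1 is known as a target of NF-kB in activated leukocytes, and the mouse carries several near-identical copies of the A1 gene on chromosome 9.

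Those copies limit what a short read can tell. The coding sequences of Bcl2a1a, Bcl2a1b and Bcl2a1d in GENCODE M21 were each 516 bases long without the stop codon and varied at 12 positions. Bcl2a1a and Bcl2a1b differed at 11 bases (97.9% identity), Bcl2a1a and Bcl2a1d at 7 (98.6%), and Bcl2a1b and Bcl2a1d at 6 (98.8%). The first 120 coding bases, which hold 7 of the 12 variable positions, are shown because they carry most of the information that separates the copies. Capitals mark the positions at which the 3 genes are not all alike. On GRCm38 the stretches lie within a coding exon at chr9:88957051-88957170 (plus strand) for Bcl2a1a, chr9:89199360-89199479 (plus strand) for Bcl2a1b and chr9:88731600-88731719 (minus strand) for Bcl2a1d.
Bcl2a1a: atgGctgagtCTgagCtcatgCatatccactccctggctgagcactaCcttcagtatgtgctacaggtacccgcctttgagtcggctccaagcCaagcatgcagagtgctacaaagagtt
Bcl2a1b: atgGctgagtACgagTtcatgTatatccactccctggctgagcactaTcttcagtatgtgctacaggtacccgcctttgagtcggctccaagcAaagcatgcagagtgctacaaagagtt
Bcl2a1d: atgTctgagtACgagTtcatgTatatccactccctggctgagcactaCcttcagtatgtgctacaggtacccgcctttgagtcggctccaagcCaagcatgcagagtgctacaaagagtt

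From coding base 95 the 3 genes shared a run of 217 identical bases. Of all stretches of 75 bases, the read length, in the annotated transcripts of each gene, the share found in no other gene was 44.8% for Bcl2a1a, 31.6% for Bcl2a1b and 32.4% for Bcl2a1d. Over the remaining members it was 100% for Mcl1, Bcl2l1 and Bcl2l11, 95.3% for Bcl2, 93.2% for Bax, 87.2% for Bak1 and 84.3% for Bid. How the deposited counts treated reads that fit several copies is not given in the sources used here, so each Bcl2a1 value below is uncertain. The sum over the 3 genes is given beside it. That sum and its level beside other genes are uncertain too, since such reads may have been dropped or counted more than once. Exons of Bcl2a1b are also overlapped over 401 of 817 bases by the same-strand gene Gm29094, which held 1 read in all 182 cells.

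Per kilobase of merged exons, so that genes of different length can be set side by side, 5 members stood well above the other 5. Over all 182 cells the level was 359 CPM per kb for Bcl2a1d, 292 for Bcl2a1b, 230 for Mcl1, 195 for Bcl2a1a and 84.3 for Bax. The next member, Bcl2l1, was at 7.06 CPM per kb, followed by Bcl2l11 at 2.01, Bid at 1.80, Bak1 at 0.431 and Bcl2 at 0.0761. The LCs thus had reads chiefly from the A1 genes and Mcl1 among the survival genes, and from Bax of the effector pair. Some neighbours in this order changed places between sets of cells. In moLCs Mcl1 (224 CPM per kb) lay above Bcl2a1a (157), and in eLCs it lay above on plate 1 (275 against 203) and below on plate 2 (211 against 277). Bcl2l11 lay above Bid in moLCs (2.25 against 1.45 CPM per kb) and in eLCs of plate 1 (1.08 against 0.872), and below it in eLCs of plate 2 (2.07 against 3.25).

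**Figure D1:**
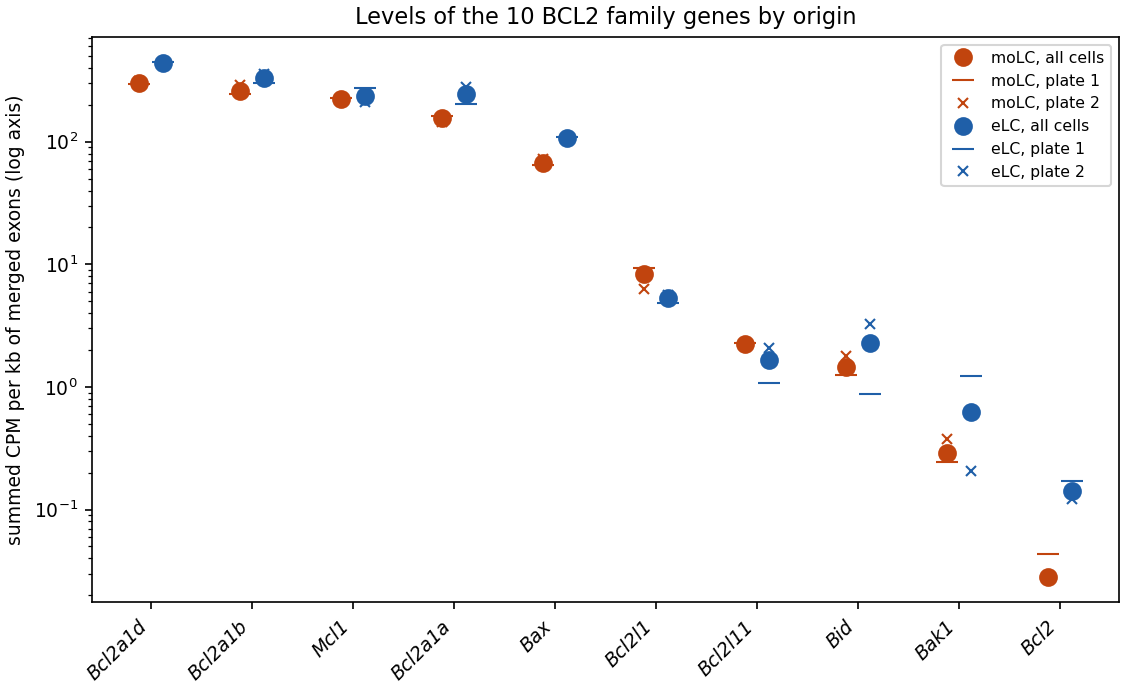
Summed CPM per kilobase of merged exons (log axis) of the 10 BCL2 family genes in moLCs (orange) and eLCs (blue), with discs for all cells, dashes for plate 1 and crosses for plate 2. Bcl2a1d, Bcl2a1b, Mcl1, Bcl2a1a and Bax lie above 60 CPM per kb in both origins and Bcl2l1 lies under 10, and Bcl2 in plate 2 moLCs had 0 reads and is not drawn.

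In reads, the family took 1538 CPM of the moLC total and 1879 CPM of the eLC total. Mcl1, a longer transcript than the A1 genes, made up 49.9% of the family's reads in moLCs and 43.1% in eLCs. The 3 Bcl2a1 genes made up 39.2% and 45.3%, Bax 6.86% and 9.06%, and Bcl2l1 2.49% and 1.29%. The shift from Mcl1 toward the Bcl2a1 genes in eLCs came mainly from plate 2. On plate 1 the Bcl2a1 share was 38.5% in moLCs and 40.9% in eLCs, and on plate 2 it was 40.6% and 48.4%.

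Mcl1 (chr3:95658788-95663176 on GRCm38, plus strand, 3 merged exons) encodes a guard on which many haematopoietic cells depend. Reads were found in 98.1% of moLCs (exact 95% interval 93.2 to 99.8), with 2 cells at 0, and in 98.7% of eLCs (93.1 to 100), with 1 cell at 0. In moLCs the level ran from 0 to 3442 CPM with a median of 658, and in eLCs from 0 to 2054 CPM with a median of 680, so the origins overlapped over nearly the whole range. The summed level was 767 CPM (exact Poisson interval 764 to 770) in moLCs and 809 CPM (805 to 813) in eLCs. As a log2 ratio, moLCs over eLCs, this was -0.08 in all cells (-0.09 to -0.07, counting error), -0.28 on plate 1 and 0.05 on plate 2. The sign thus depended on the plate, and it also turned to 0.02 when edgeR TMM factors replaced the read totals.

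The Bcl2a1 genes encode A1, a small guard whose transcripts are typical of activated myeloid and lymphoid cells. Bcl2a1a (chr9:88956900-88962419, plus strand), Bcl2a1b (chr9:89199209-89207827, plus strand) and Bcl2a1d (chr9:88723285-88731914, minus strand) each have 2 merged exons. Summed over the 3, the level was 603 CPM in moLCs (601 to 606) against 851 CPM in eLCs (847 to 855). Cells ranged from 0 to 2796 CPM with a median of 444 in moLCs and from 10.4 to 4307 CPM with a median of 659 in eLCs, which overlapped widely. The log2 ratio of the sum was -0.50 in all cells, -0.43 on plate 1 and -0.50 on plate 2, which is 1.41-fold, 1.35-fold and 1.42-fold lower in moLCs. Leaving out any single cell kept it between -0.57 and -0.42.

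Each copy went the same way. Bcl2a1a reached 128 CPM in moLCs against 202 CPM in eLCs, and its log2 ratio was -0.66 in all cells, -0.32 on plate 1 and -0.93 on plate 2. Bcl2a1b had 213 and 272 CPM, and log2 ratios of -0.35, -0.29 and -0.29. For Bcl2a1d they were -0.53, -0.58 and -0.46, from 261 and 376 CPM. Since the copies share most of their sequence, these are not 3 separate observations.

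The copies differed in spread between cells. By the ratio of its quartiles Bcl2a1a was the most uneven, with a median of 90.3 CPM and quartiles of 13.6 and 148 in moLCs and a median of 95.6 with quartiles of 25.7 and 316 in eLCs, so its medians were closer than its sums. Bcl2a1b was the most even by this ratio, with a median of 185 and quartiles of 101.01 and 313 CPM in moLCs and a median of 241 with quartiles of 145 and 362 CPM in eLCs. Bcl2a1d had a median of 183 CPM in moLCs (0 to 1508) and 269 in eLCs (0 to 1814). Of the Bcl2a1 reads, Bcl2a1a took 21.3% in moLCs and 23.8% in eLCs, Bcl2a1b 35.4% and 32.01%, and Bcl2a1d 43.3% and 44.2%. Reads of all 3 genes were found together in 95.1% of moLCs and 94.9% of eLCs, counting a single read as found. With at least 10 reads as the limit, Bcl2a1a was found in 81.6% of moLCs and 83.5% of eLCs. At that limit Bcl2a1d was found in 89.3% and 93.7%, and Bcl2a1b in 99.03% and 97.5%.

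A further A1 gene on the same chromosome, Bcl2a1c, lay far lower, at 5.23 CPM per kb in moLCs and 6.92 in eLCs, and shared few stretches with the others, 96.2% of its stretches of 75 bases being found in no other gene. The share with a read was 62.1% among moLCs and 75.9% among eLCs, and the cells that had any held few, with medians of 7 reads (moLCs) and 7.5 reads (eLCs). Its summed level was 2.32 CPM in moLCs against 3.07 CPM in eLCs, and the log2 ratios were -0.40, -0.41 on plate 1 and -0.44 on plate 2.

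Bcl2l1 (chr2:152780668-152831728, minus strand), the gene of BCL-XL, gave different pictures by share and by level. A larger share of eLCs had a read, 48 cells or 60.8% (49.1 to 71.6), against 47 moLCs or 45.6% (35.8 to 55.7). Thinned to 2052512 reads per cell the shares were 61.2% and 43.8%. The share was higher in eLCs on plate 1 (68.97% against 47.8%) and on plate 2 (28 of 50 cells against 41.7%). The summed level went the other way, with 38.3 CPM in moLCs (37.6 to 38.97) against 24.3 CPM in eLCs (23.7 to 24.97).

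Among cells with a Bcl2l1 read the median was 44.2 CPM for moLCs against 12.6 CPM for eLCs, and the moLC value was the higher on plate 1 (34.6 against 8.32) and on plate 2 (46.5 against 14.8). Cells ran from 0 to 302 CPM in moLCs and from 0 to 219 CPM in eLCs. The cells with a read held a median of 124 Bcl2l1 reads in moLCs and 36 in eLCs, so a smaller share of moLCs held more reads each. With at least 10 reads as the limit the shares were 44.3% of eLCs and 36.9% of moLCs. The log2 ratio of the sums was 0.65 in all cells (0.61 to 0.70), 0.97 on plate 1 and 0.17 on plate 2. It rested on few cells, since 8 moLCs held 50% of the moLC reads and 5 eLCs held 50% of the eLC reads.

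Bcl2 itself (chr1:106538178-106714274, minus strand), the founding member of the family, was rarely read. It was read in 2 moLCs (1.94%) and 4 eLCs (5.06%). Those cells held 78 reads in moLCs, 74 of them in 1 cell, and 283 in eLCs, for 0.260 and 1.30 CPM. On plate 2 none of 36 moLCs had a read, which by a floor of 3 cells allows a share of up to 8.33% (exact upper limit 9.74%), and 2 of 50 eLCs did. The log2 ratio of -2.32 in all cells rests on 6 cells and moved to between -6.59 and -1.45 when single cells were left out. On plate 1 it was -1.97, from 2 moLCs and 2 eLCs.

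**Figure D2:**
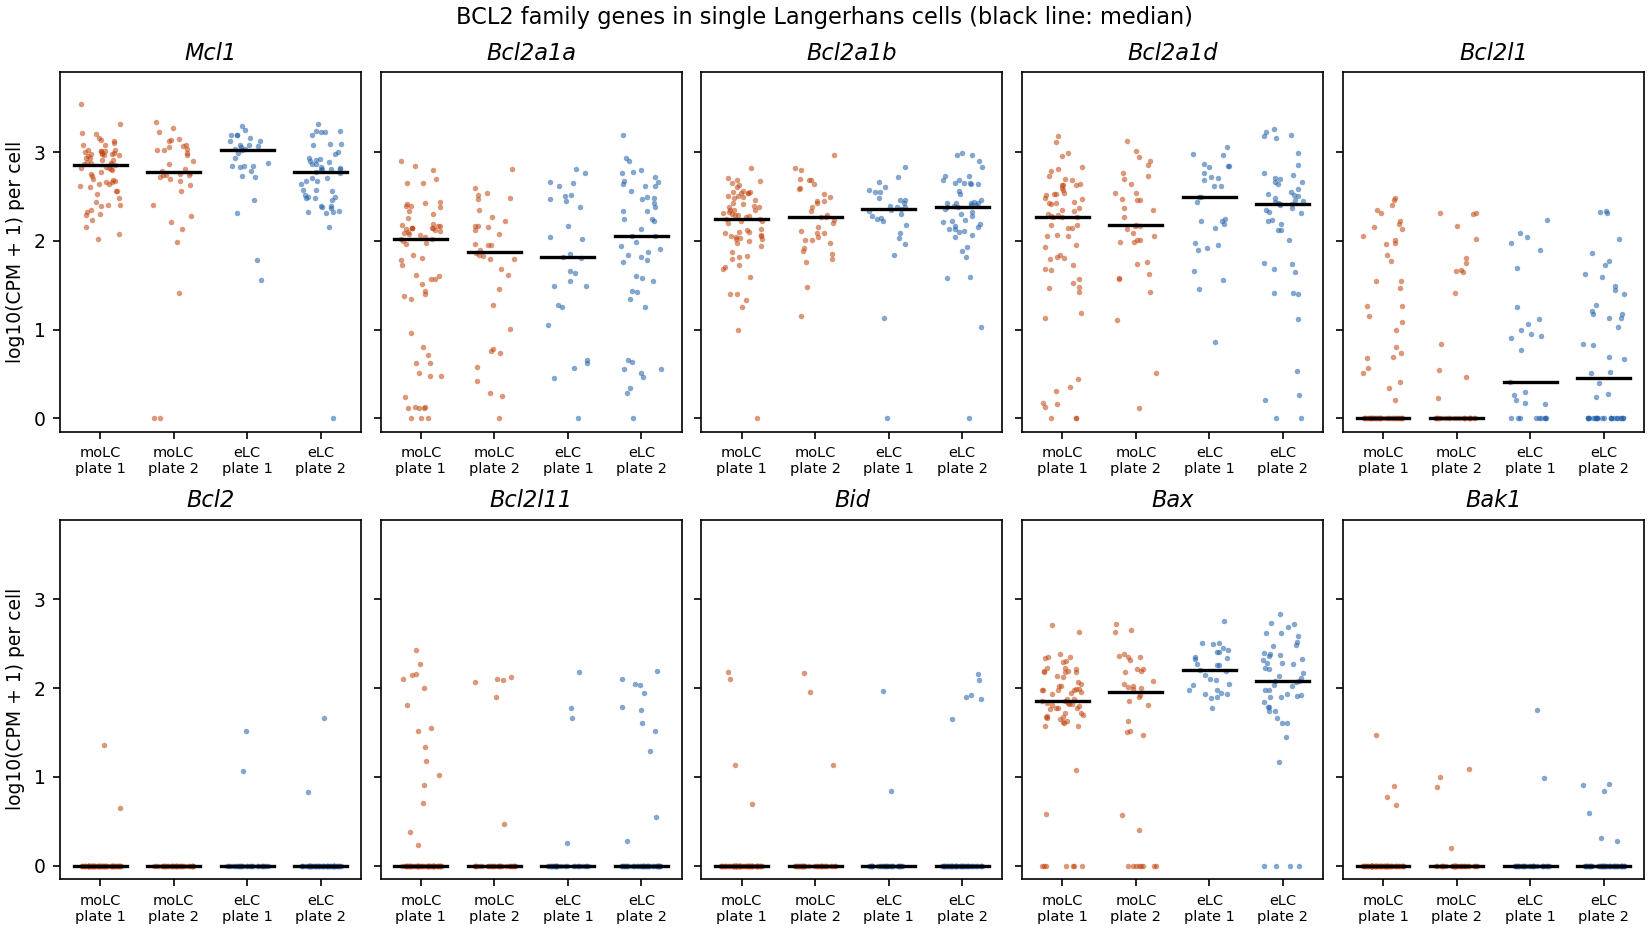
Level of each of the 10 genes in every cell, as log10(CPM + 1), in moLCs (orange) and eLCs (blue) of plate 1 and plate 2, with the median as a black line. Mcl1, the Bcl2a1 genes and Bax form clouds that overlap between origins, Bcl2l1 splits between cells at 0 and cells with reads, and Bcl2, Bcl2l11, Bid and Bak1 are at 0 in most cells of each set.

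The BH3-only genes were read in a minority of cells. Bcl2l11 (chr2:128126038-128162547, plus strand), the gene of BIM, was read in 22 moLCs (21.4%, 13.9 to 30.5) and 16 eLCs (20.3%, 12.04 to 30.8). Its summed level was 18.1 CPM in moLCs against 13.4 CPM in eLCs, and the highest cell had 267 and 156 CPM. The log2 ratio was 0.43 in all cells, 1.08 on plate 1 and 0.07 on plate 2, where the counting interval of -0.02 to 0.16 included 0. On plate 1 only 4 of 29 eLCs had a read, and 56.5% of those eLC reads were in 1 cell. Leaving out single cells moved the log2 ratio of all cells to between 0.21 and 0.69.

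Bid (chr6:120891930-120916853, minus strand), whose protein links death receptors to mitochondria, was read in 7 moLCs (6.80%) and 8 eLCs (10.1%). Its level was 5.15 CPM in moLCs against 8.14 CPM in eLCs, and the log2 ratios were -0.66, 0.53 on plate 1 and -0.85 on plate 2, so the plates disagreed in sign. The plate 1 value rested on 2 eLCs, with 97.1% of their reads in 1 cell, and single cells left out moved the ratio of all cells to between -1.24 and -0.29. Its exons overlap Bcl2l13 on the opposite strand over 628 bases, and the kit and counting were not stated to use strand. Cells with Bcl2l11 or Bid made up 27.2% of moLCs and 30.4% of eLCs, and 1 moLC and no eLC had reads of both. The 0 of 79 eLCs allows a share of up to 3.797% by the floor of 3 cells (exact upper limit 4.56%).

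The effectors were unequal. Bax (chr7:45461697-45466898, minus strand) was read in 88 moLCs (85.4%, 77.1 to 91.6) and 75 eLCs (94.9%, 87.5 to 98.6). In moLCs cells ran from 0 to 526 CPM with a median of 75.1, and in eLCs from 0 to 684 CPM with a median of 136. The eLC median lay above the moLC median on plate 1 (159 against 69.96 CPM) and on plate 2 (118 against 89.6 CPM), with overlap between the cells of the origins on each. On plate 1 the lowest of 29 eLCs had 58.98 CPM, while 60 of 67 moLCs had a read.

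The summed Bax level was 105.6 CPM in moLCs (104.4 to 106.7) against 170.3 CPM in eLCs (169 to 172). The log2 ratio was -0.69 in all cells, -0.77 on plate 1 and -0.57 on plate 2, or 1.61-fold, 1.70-fold and 1.49-fold lower in moLCs. Under every setting tried, TMM factors, equal weight per cell and equal depth among them, it stayed between -0.77 and -0.57. Bax was thus lower in moLCs in summed level, median and share of cells on each plate, short of 2-fold. Same-strand exons of Gm45808 overlap it over 192 of 1576 bases. Its level also went with the number of genes read in a cell (Spearman rho 0.12 to 0.32 in the 4 sets of cells of 1 origin and plate), which was lower in moLCs. The part of that number in the Bax difference was not tested.

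Bak1 (chr17:27019810-27029009, minus strand), the partner of Bax, was read in 8 moLCs (7.77%) and 8 eLCs (10.1%). It had 0.699 and 1.501 CPM, and 76.5% of the eLC reads were in 1 cell. The log2 ratio was -1.10 in all cells, -2.33 on plate 1 and 0.85 on plate 2, and leaving out 1 cell turned it to 0.95. Exons of Ggnbp1 overlap Bak1 on the opposite strand over 614 bases. Reads of Bax without Bak1 were found in 82 moLCs and 68 eLCs, of Bak1 without Bax in 2 and 1, of both in 6 and 7, and of neither in 13 (12.6%, 6.90 to 20.6) and 3 (3.797%, 0.790 to 10.7).

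**Figure D3:**
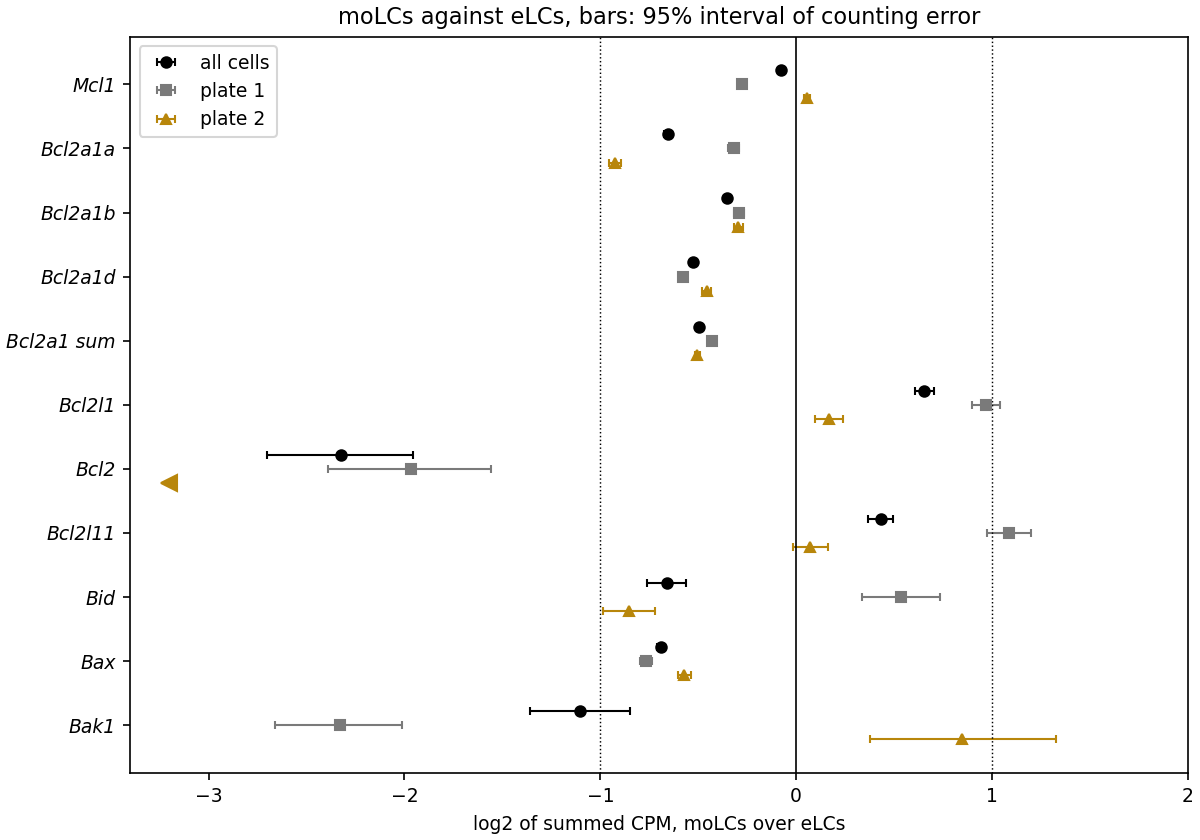
Log2 ratio of summed CPM in moLCs over eLCs for each gene and for the sum of Bcl2a1a, Bcl2a1b and Bcl2a1d, in all cells (black discs), plate 1 (grey squares) and plate 2 (gold triangles), with 95% intervals for counting error and dotted lines at 2-fold. The Bcl2a1 genes and Bax lie left of 0 in all 3 sets, Bcl2l1 lies right of 0, Mcl1, Bid and Bak1 change side between plates, and the arrow stands for Bcl2 on plate 2, where moLCs had 0 reads and eLCs had 146.

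By a fixed rule of size, a gene counted as different where 25% or more of the cells of either origin had a read of it and its summed CPM were 2-fold or more apart, always with the same sign, overall and on each plate. Of the 10 members, 6 met the share (Mcl1, Bcl2a1a, Bcl2a1b, Bcl2a1d, Bcl2l1 and Bax), and 0 of the 10 met the whole rule. Over all 6522 genes that met the share, 132 passed, or 2.02%. Without a minimum fold, 4 of the 6 members (the Bcl2a1 genes and Bax) were lower in moLCs in all 3 sets, where 33.7% of the 6522 genes were, and 1 of the 6 (Bcl2l1) was higher in all 3 sets, where 19.5% were. With TMM factors, which shifted log2 ratios by 0.10, the same count of 4 of 6 stood beside 25% of genes. Since 3 of the 4 are Bcl2a1 copies that share most of their sequence, they are not separate observations. The count of 4 of 6 therefore cannot be weighed against either share. The median log2 ratio was -0.44 over the 6 members, 3 of which are Bcl2a1 copies, and -0.10 over the 6522 genes. On plate 1 these medians were -0.31 and -0.07, and on plate 2 -0.38 and -0.09.

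Most cells had reads of guards and of an effector together. Reads of Mcl1, of at least 1 of the 3 Bcl2a1 genes and of Bax were seen in 87 moLCs (84.5%) and 75 eLCs (94.9%). The most frequent count of members read was 6 of 10 in each origin, in 43 moLCs and 34 eLCs, and 7 were read in 10 moLCs and 22 eLCs. Only 4 cells lacked reads of Mcl1 or of the Bcl2a1 genes. Mcl1 was at 0 in 2 moLCs and 1 eLC of plate 2, and these held 718 to 903 Bcl2a1 reads each. The Bcl2a1 genes were at 0 in 1 moLC of plate 1, which held 824 Mcl1 reads. No cell lacked both, which by the floor of 3 cells allows up to 2.91% of moLCs and 3.797% of eLCs (exact upper limits 3.52% and 4.56%).

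Within cells, the balance between guards varied over a wide range. In reads per kilobase, the Bcl2a1 sum exceeded Mcl1 in 78 of the 100 moLCs and 66 of the 78 eLCs that had both. These counts carry the uncertainty of reads shared between the Bcl2a1 copies. The log2 ratio of the Bcl2a1 sum over Mcl1 was 1.51 at the moLC median (-3.37 to 8.45) and 1.98 at the eLC median (-2.80 to 6.56), with SDs of 1.96 and 1.86 that exceeded the difference between the medians. Mcl1 over Bax was 1.63 at the moLC median and 0.84 at the eLC median, with SDs of 1.78 and 1.47. It was higher in moLCs on plate 1 (1.84 against 1.24) and on plate 2 (1.05 against 0.53). The Bcl2a1 sum over Bax had medians of 3.28 and 3.28 over both plates. By plate they went opposite ways, with 3.43 in moLCs against 2.45 in eLCs on plate 1 and 3.15 against 3.32 on plate 2. These Bax ratios cover only cells with reads on both sides, 87 moLCs and 75 eLCs for Mcl1 and 88 and 75 for the Bcl2a1 sum. On plate 2 the latter were 28 of 36 moLCs and 46 of 50 eLCs. Cells with guard reads and no Bax read would rank highest, so these medians do not describe all cells of each origin.

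**Figure D4:**
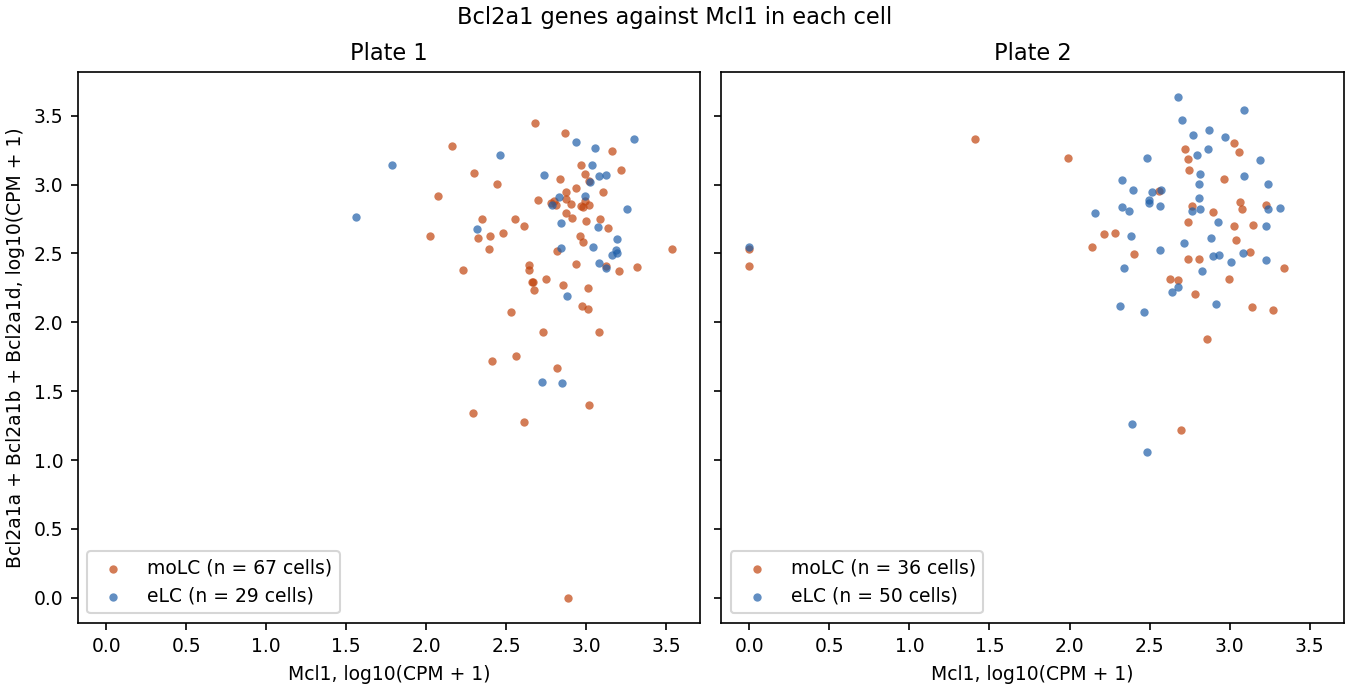
Summed level of Bcl2a1a, Bcl2a1b and Bcl2a1d against the level of Mcl1 in each cell, both as log10(CPM + 1), on plate 1 and plate 2, with moLCs in orange and eLCs in blue. The points form a round cloud in which the origins overlap, with 3 cells at 0 for Mcl1 on plate 2 and 1 cell at 0 for the Bcl2a1 genes on plate 1.

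Correlations across cells were computed within each origin and plate, over 67, 36, 29 and 50 cells, and are descriptions, since cells of a set share their libraries' preparation and differ in depth. The Bcl2a1 genes varied together. Spearman rho was 0.51 to 0.73 between Bcl2a1a and Bcl2a1b, 0.66 to 0.76 between Bcl2a1a and Bcl2a1d, and 0.57 to 0.81 between Bcl2a1b and Bcl2a1d. Shared reads can enter these values. Bcl2a1c, which shares few stretches with them, had rho of 0.64 to 0.77 with their sum. It held only 698 reads in moLCs and 669 in eLCs, against 181210 and 185365 for the sum. The part of stray reads from the other copies in this rho was not tested.

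The guards of different genes did not go together closely. Between Mcl1 and the Bcl2a1 sum rho was -0.09 to 0.18, and between Mcl1 and Bcl2l1 0.01 to 0.26. Bcl2l1 and the Bcl2a1 sum had rho of -0.03 to 0.48, a range that spans little relation and a moderate one. Bax had rho of -0.17 to 0.28 with the Bcl2a1 sum and of -0.19 to 0.16 with Mcl1, so its sign changed between sets. Total reads of a cell had rho of -0.11 to 0.06 with the Bcl2a1 sum and of -0.33 to 0.25 with Mcl1. The range was -0.41 to 0.16 with Bax and -0.27 to 0.34 with Bcl2l1. The number of genes read had rho of -0.37 to 0.13 with the Bcl2a1 sum. With the share of mt- reads Mcl1 had a negative rho in all 4 sets (-0.35 to -0.03).

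**Figure D5:**
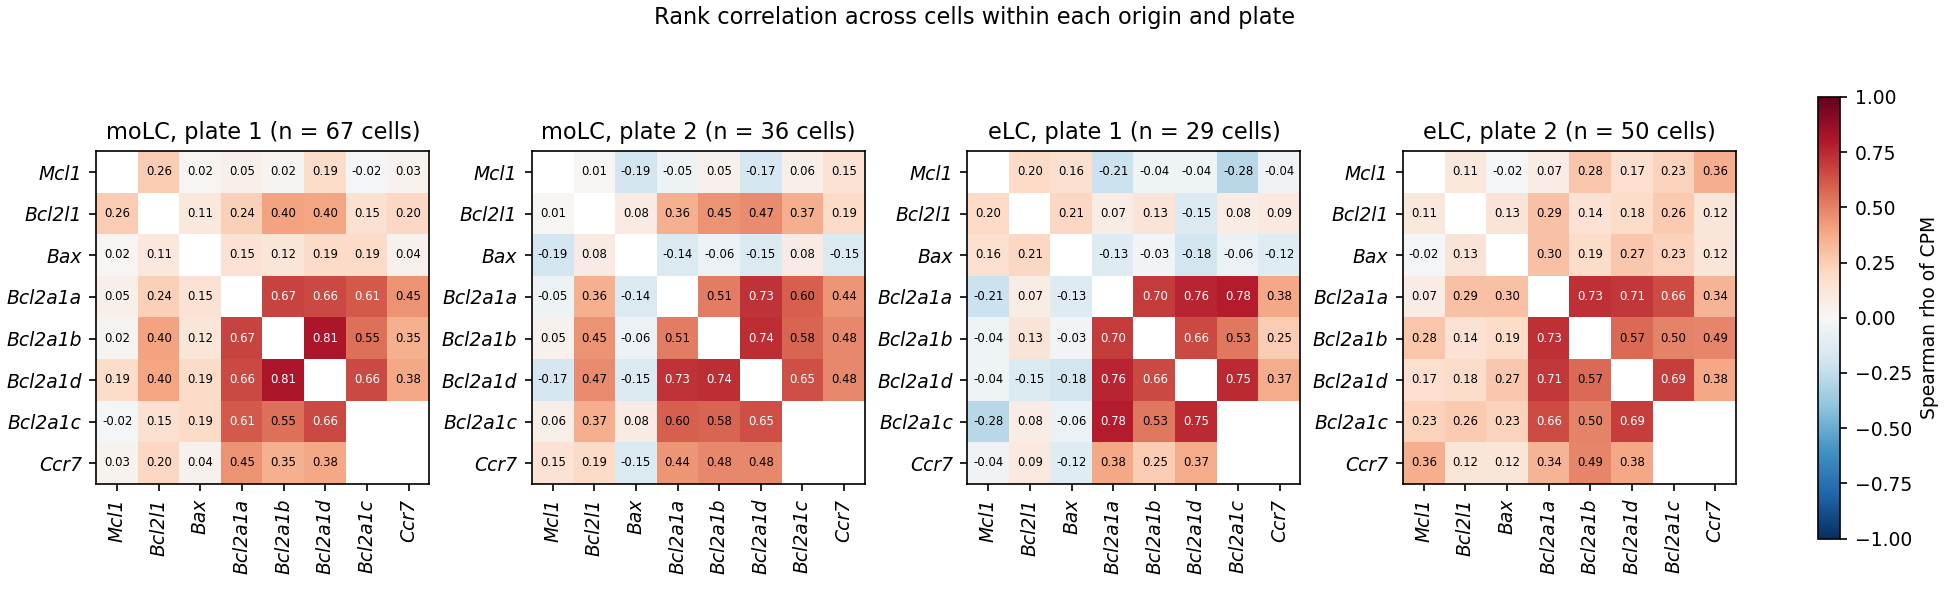
Spearman rho of CPM across cells between Mcl1, Bcl2l1, Bax, the Bcl2a1 genes, Bcl2a1c and Ccr7 in each origin and plate, with n in each title, blue for negative and red for positive values, and blank squares for pairs not computed. The Bcl2a1 genes and Bcl2a1c form a red block in all 4 sets, Ccr7 is positive with each of Bcl2a1a, Bcl2a1b and Bcl2a1d, and Mcl1 and Bax are pale against the block.

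For each member the genes most like it were ranked by the lowest of the 4 rho values among the 5987 genes found in 25% or more of all cells. The nearest to the Bcl2a1 sum, beside Bcl2a1c, were Ccr7 (rho 0.40 to 0.51), the chemokine receptor that guides dendritic cells to lymph nodes, and Basp1 (0.39 to 0.57), a membrane-associated protein. The median gene had a lowest rho of -0.18 with the sum, and 1% of genes exceeded 0.19. Ccr7 was positive with Bcl2a1a (0.34 to 0.45), Bcl2a1b (0.25 to 0.49) and Bcl2a1d (0.37 to 0.48) in every set. This follows largely from its rank with their sum in the same sets and is not a separate observation. With Bax (-0.15 to 0.12) and Mcl1 (-0.04 to 0.36) its sign varied.

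The nearest to Mcl1 were Mir22hg (0.42 to 0.60), the host transcript of a microRNA, Arl4c (0.41 to 0.52), a small GTPase, and Sqstm1 (0.40 to 0.52), an autophagy receptor. Those of Bcl2l1 were lower, with Tbc1d4 (0.27 to 0.53), a regulator of Rab GTPases, Tmem189 (0.21 to 0.31) and 9530068E07Rik (0.19 to 0.36). Those of Bax were Ccdc124 (0.21 to 0.39), Fam98b (0.20 to 0.29) and Timm8b (0.20 to 0.41), an import chaperone of mitochondria. The nearest genes to each Bcl2a1 gene were the other Bcl2a1 genes and Bcl2a1c. Langerin, Cd207, had rho of 0.25 to 0.38 with Mcl1 and 0.11 to 0.43 with Bcl2l1, and its sign varied with the Bcl2a1 sum (-0.05 to 0.29).

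Around the members stand 44 further genes of the apoptosis pathway. A read was found for 42 of them, 27 were read in 25% or more of either origin, and 0 of these 27 met the rule of size in either direction, beside 2.02% of the 6522 genes that met the share. Their median log2 ratio was -0.09 over the 41 with a ratio. By group it was -0.40 for 11 of 14 other BCL2 family genes, -0.16 for 13 genes of the apoptosome, the caspases and their inhibitors, 0.10 for 8 genes of death receptors and their adaptors and 0.04 for 9 partners and turnover factors of BCL2 proteins. These medians include genes below the share, which 5, 8, 6 and 8 genes of the groups met, in this order. Bok had 0 reads in eLCs and Bik 0 in moLCs, so their ratios used the floor of 3 reads. The median of -0.10 over the 6522 genes covers only genes that met the share. The highest in CPM over all cells were Birc3, an inhibitor of apoptosis (213 CPM, log2 ratio 0.07), Bag1, a co-chaperone that binds BCL2 (170 CPM, -0.32), and Casp6, an executioner caspase (159 CPM, -0.16).

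The largest ratios among pathway genes that met the share did not hold at that size on each plate. Pmaip1, the gene of NOXA, a BH3-only protein that binds MCL1 and A1, reached 68.3 CPM in moLCs against 18.4 CPM in eLCs, and its log2 ratios were 1.90, 2.88 on plate 1 and -0.06 on plate 2. It was read in 35 moLCs and 19 eLCs, and 33.8% of the moLC reads were in 1 cell. On plate 1 only 4 of 29 eLCs had a Pmaip1 read, with 64.4% of those reads in 1 cell. Fas, a death receptor, had 75.1 and 35.4 CPM, with ratios of 1.09, 1.05 and 0.05, with reads in 46.6% of moLCs and 30.4% of eLCs. On plate 2, 53.03% of its moLC reads were in 1 cell. Bcl2l13, the gene of a mitochondrial BCL2-like protein, had 8.999 and 21.2 CPM, with ratios of -1.24, -0.87 and -1.70, and was lower in moLCs on each plate. Over both plates 32.7% of its eLC reads were in 1 cell, and on plate 2 the share was 50.1%.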

How the data were processed

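Single LCs were sorted into 2 plates and made into libraries with a Smart-Seq kit, without molecular identifiers, and sequenced as paired reads of 75 bases. The authors aligned reads with STAR to mm10, per the labels and methods, and deposited read counts per gene in 1 table. The counting tool, annotation and any use of strand are not given in the sources used here. The deposited values were whole counts, except for 9 estimated counts in 8 cells that were not whole and were rounded. No 2 columns were identical.

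Cells with over 5% of reads on mt- genes were left out, as in the study. Counts were summed by origin, and by origin and plate, and divided by total reads (CPM). CPM per kb used merged exons of GENCODE M21 (GRCm38). Totals carry exact Poisson intervals, shares exact Clopper-Pearson intervals and ratios exact binomial intervals (95%). They cover counting error only, because reads of amplified cDNA are not independent molecules. Ratios against 0 reads used a floor of 3 reads over the group, and a share of 0 is given with a floor of 3 cells beside its exact upper limit. For equal depth, cells were thinned to 2052512 reads, and 7 moLCs and 12 eLCs below that were left out. The study's tests over cells were not repeated, since cells are not replicates. No doublet caller was run on singly sorted cells.

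The members, pathway and marker lists and rules were chosen with earlier results of these data known. Genes named in the text were the 10 members, the 3 pathway genes highest in CPM and the 3 with the largest ratio among those found in 25% or more of either origin, and the 3 genes nearest to each member. Gm29094, Bcl2a1c, Cd207 and Ccr7 were added for shared sequence or as LC genes, and Fadd, Bad and Bbc3 for passing looser limits, after values were seen. A further item of the LC marker list is not reported here. Alternatives were other mt- limits, a minimum of genes read, equal weight per cell, TMM factors, totals without the 50 highest genes, equal depth, other share and fold limits, single plates and single cells left out. Tools were Python 3.11.15, numpy 2.4.6, pandas 2.3.3, scipy 1.17.1, matplotlib 3.10.9, R 4.3.3 and edgeR 4.0.16 (TMM only).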

Additional observations from a re-analysis of the deposited data

Results flagged for a closer look

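The 3 cells over the mt- limit, all moLCs of plate 2 with totals of 233438 to 920430 reads and 9.97% to 29.3% of reads on mt- genes, entered no comparison and still held reads of 7 members above the floor of 3 reads. Their summed levels were 394 CPM for Mcl1, 226 CPM for Bcl2a1a, 204 CPM for Bcl2a1b, 310 CPM for Bcl2a1d, 12.7 CPM for Bax, 15.1 CPM for Bak1 and 2.32 CPM for Bcl2l1. Mcl1, Bcl2a1a and Bcl2a1b were read in all 3 cells, Bcl2a1d in 2 and Bax, Bak1 and Bcl2l1 in 1 each. Bcl2, Bcl2l11 and Bid had 0 reads in them.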

How the results depend on the processing

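The count of 0 members past the size rule was the same under each of the 12 alternatives. Some of these could not have raised it. The 3-fold limit and the limit of a read in at least 50% of cells are stricter than the rule itself. A minimum of 1000 genes read kept the same 182 cells. The count of 0 pathway genes moved to 1 (Fadd) with a read in at least 10% of cells as the limit and to 3 (Bad, Bbc3 and Bcl2l13, all lower in moLCs) at 1.5-fold. The cause was not tested beyond the looser limits themselves. The share of all genes that passed at these looser limits was not computed. The counts of 1 and 3, and the count of 0 members at the same limits, therefore have no background beside them. The log2 ratios of Bcl2a1a, Bcl2a1b, Bcl2a1d, Bax, Bcl2l1, Bcl2l11 and Bcl2 kept their sign in 12 of 12 settings each. Those of Mcl1 changed sign in 2 (0.02 with TMM factors, 0.05 on plate 2 alone), Bid in 1 (0.53 on plate 1 alone) and Bak1 in 2 (0.85 on plate 2 alone, 0.95 with 1 cell left out). No paired analysis was possible because no test was made and the labels name no replicate shared by the origins. The ratios of Bcl2, Bid and Bak1 rest on 6 to 16 cells. At equal depth their shares moved little, in eLCs from 5.06% to 4.48% for Bcl2 and from 10.1% to 8.96% for Bid and Bak1.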
